A study of Mus musculus with 10 samples.

Results

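Leucine-rich repeat (LRR) adhesion genes, neurexins and neuroligins were taken by the stems of their names (Nrxn, Nlgn, Lrrtm, Lrrc4, Lrfn, Slitrk, Flrt, Elfn, Lrrn, Lingo and Lrig) from lists of m6A peaks of mouse cortex and hippocampus. The rule found 40 genes among the 8516 genes with a peak in either list. In m6A-seq, RNA fragments pulled down by an antibody against N6-methyladenosine are compared with input RNA, and enriched stretches are reported as peaks. The groups, all from postnatal day 5, were mice with a Nestin-Cre driven deletion of Mettl14 (KO; 2 IP and 2 input libraries) and wild-type mice (WT; 3 IP and 3 input libraries). METTL14 is a core subunit of the enzyme that writes most m6A in mRNA, and Nestin-Cre acts in neural progenitors and their progeny, so that microglia and vessel cells of these mice would keep the gene. The study's design names tissue as the source, while the labels also name a culture medium, so whether tissue or cultured cells gave the RNA is not settled.

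The authors deposited 1 consensus peak list per genotype, with no values per library, so no difference between KO and WT has a replicate error and no test was run. The lists come from unequal numbers of libraries of unknown depth, and a missing peak may be a peak below detection or a gene with little RNA. In bulk samples, fewer cells of a type and less RNA per cell cannot be told apart. Mettl14 itself had no KO peak and 1 WT peak, which does not measure its deletion. Among markers, 6 of 8 genes of neurons, 8 of 8 of cortex and hippocampus, 5 of 5 of astrocytes, 6 of 6 of the oligodendrocyte lineage, 4 of 5 of microglia and 5 of 5 of endothelium had a WT peak, which is no measure of their expression. A retained peak was present in 6, 4, 3, 0, 2 and 1 of these genes in the same order, against 20.6% of all genes with a WT peak. These are few genes per type, and the part of cell makeup in the results was not tested. After merging of overlapping entries the KO list held 3673 peaks and the WT list 15009.

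Synaptic adhesion proteins of these families span the synaptic cleft or sit on either side of it. Neurexins are presynaptic receptors for neuroligins and LRRTM proteins. SLITRK proteins and some LRFN proteins bind receptor tyrosine phosphatases of the LAR family. FLRT proteins bind latrophilins, LRRC4 and LRRC4C bind netrin-G proteins, and LRRC4B binds LAR-type phosphatases. LRR ectodomains are often encoded by a long exon, and m6A of mRNA is known to gather in long internal exons and around the stop codon. The name rule is wider than its label: it also took 5 genes, Lrrc41, Lrrc42, Lrrc45, Lrrc47 and Lrrc49, that are not members of the Lrrc4 family, among them Lrrc45, a component of the centrosome linker, and Lrrc41, a substrate adaptor of cullin ligases. They are kept in the counts and described on their own. Of 49 genes that the rule takes in the RefSeq annotation of GRCm38.p6, 9 had no peak in either list: Lrrtm2, Slitrk6, Lingo4, Lrig3, Lrrn4, Lrrn4cl, Lrrc40, Lrrc43 and Lrrc46.

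Peaks at the very start of a transcript are shown first, since the antibody also binds m6Am, the methylated form of an adenosine next to the cap. RefSeq (GRCm38.p6) gives 41 starts for 32 of the 40 genes. At 3 of them the first transcribed base lay in a WT peak, and none of the 41 windows of 50 transcribed bases held a KO peak. The sequences run from 30 bases before the start to 30 bases after it, 5′ to 3′, with capitals for bases inside the WT peak.
Lrrtm3, chr10:64090226-64090285, minus strand: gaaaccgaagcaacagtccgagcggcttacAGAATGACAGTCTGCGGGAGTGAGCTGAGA
Lrfn4, chr19:4615638-4615697, minus strand: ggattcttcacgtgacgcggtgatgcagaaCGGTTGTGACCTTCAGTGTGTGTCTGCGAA
Lrrc4b, chr7:44442457-44442516, plus strand: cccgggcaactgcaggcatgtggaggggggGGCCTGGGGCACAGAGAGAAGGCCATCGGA
The first transcribed base was A in Lrrtm3, C in Lrfn4 and G in Lrrc4b, and 34.4% of the 32851 starts in the table begin with A. In Nlgn1 another WT peak entered the window of 50 bases of one start, from base 31. The letters GGAC, the core of a frequent m6A motif, were searched on the transcribed strand and stood in none of these 4 windows of 50 bases, against 18.9% of all starts. No match says only that these letters are not in the window.

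The 40 genes carried dense, wide and strong WT peaks. Few of these peaks were listed in the KO, as over all WT peaks (10.9% retained, as defined below, against 12.9%). The KO list held 27 peaks in 17 of the genes, over 4659 exonic bases, and the WT list 137 peaks in all 40 genes, over 50564 exonic bases. The KO length was thus 9.21% of the WT length, and 16.6% over all peaks. The second ratio also counts KO peaks in genes without a WT peak. The 40 genes had none of these, so the ratios are not strictly alike. In the KO list the median exonic width was 151 bases (quartiles 105 and 181), as it was over all KO peaks (151 bases). In the WT list it was 268 bases (quartiles 151 and 450), against 208 bases over all WT peaks. The genes had a median of 3 WT peaks (quartiles 2 and 4.25), against 1 over all 7717 genes with a WT peak. None of the 27 KO peaks lay in a gene without a WT peak, against 22.8% of all KO peaks.

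**Figure D1:**
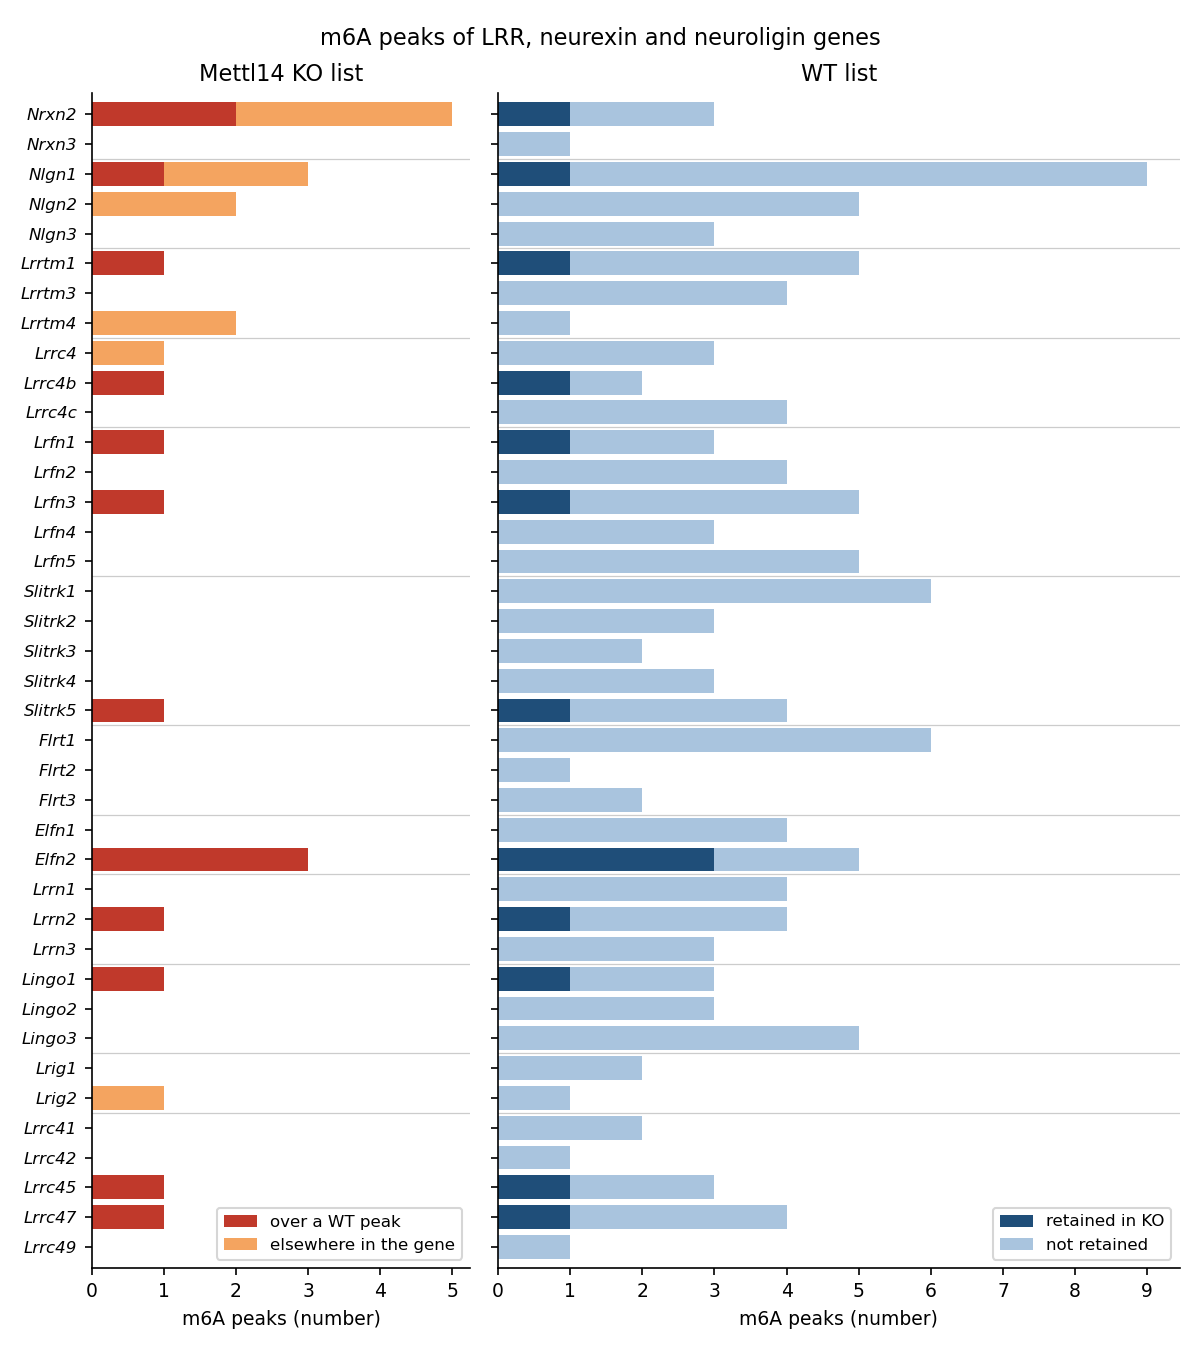
Number of m6A peaks per gene (x axes) in the KO list (left) and the WT list (right), with genes ordered by family and 1 gene not drawn. Colours separate KO peaks over a WT peak from KO peaks elsewhere in the gene, and WT peaks retained in KO from those not retained. Nrxn2 has 5 KO and 3 WT peaks, and 23 genes have no KO peak.

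Retained is used here of a WT peak that shared 1 or more exonic bases with a KO peak of the same strand. Of the 137 WT peaks 15 were retained, which is 10.9% (Wilson 95% interval 6.75 to 17.3, for counting error over peaks only), beside 12.9% of all WT peaks. With only as many of the strongest WT peaks kept as the KO list has, the share was 10.9% against 28.6% over all, and with 50% of a peak to be covered 2.92% against 6.83%. By gene, 13 of 40 had a retained peak (32.5%, interval 20.1 to 48.0), against 20.6% of all genes with a WT peak. This order turned under other rules: it was 10% against 11.7% with 50% of a peak covered, 7.50% against 10.9% with 50% of both peaks shared, 17.9% against 19.3% in the stronger 50% of each list and 22.2% against 34.3% with the fewer WT peaks. Of the 40 genes 17 had any KO peak (42.5%), against 27.0%. The genes have many WT peaks each. Among genes with 3 or more WT peaks, 12 of 29 had a retained peak (41.4%), against 39.7% over all such genes. Counted from the KO list, 16 of its 27 peaks in these genes lay over a WT peak (59.3%, interval 40.7 to 75.5), against 57.1% of all KO peaks and 73.9% of KO peaks in genes with a WT peak, where all 27 lie. The other 11 lay elsewhere in the gene (40.7%, interval 24.5 to 59.3), against 26.1% of KO peaks in all genes with a WT peak.

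Strength was read from the authors' score of each peak, a p-value or q-value of their peak calling, which is used only to describe and rank peaks within a list. Ranks are in percent of the list, small for strong peaks, with ties averaged, and 12 of the WT peaks, in 10 genes, were listed at 0. The median rank of the 27 KO peaks was 48.7% in the KO list, so they lay near the middle of it. The median rank of the 137 WT peaks was 29.9% in the WT list, and 45 of them (32.8%, interval 25.5 to 41.1) were among its strongest 20%. Within this strongest class 6 of 45 were retained (13.3%, interval 6.26 to 26.2), against 31.0% of all WT peaks of the class. In the next classes 2 of 37 (5.41%), 3 of 22 (13.6%), 4 of 20 and 0 of 13 were retained, against 14.0%, 9.49%, 6.43% and 3.54% over all peaks. The last count allows a share of up to 22.8% (upper Wilson limit). Over all peaks the share fell with each weaker class, while in these genes it showed no such order, on few peaks per class.

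**Figure D2:**
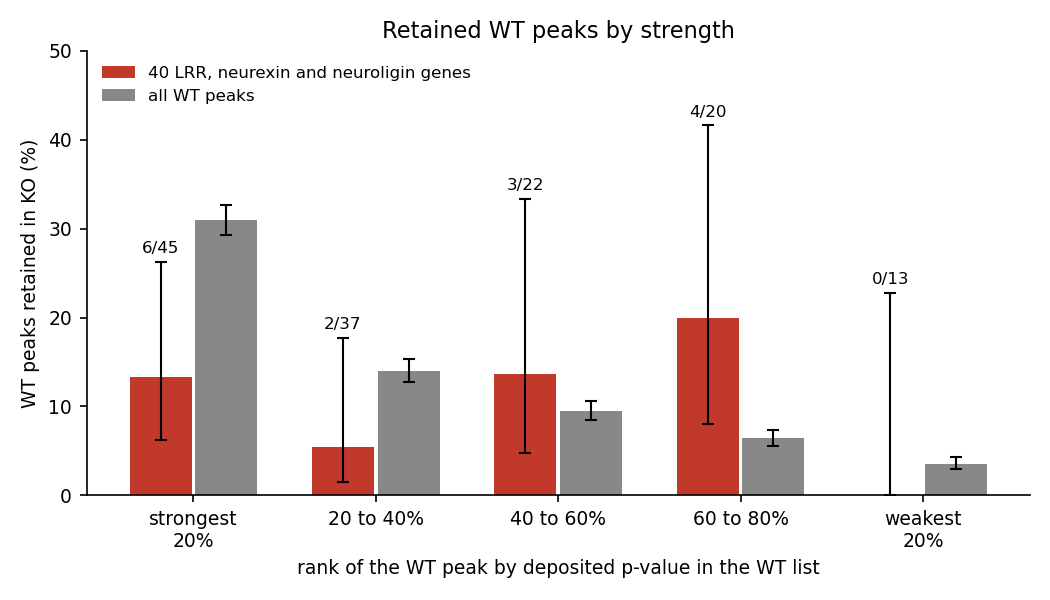
Share of WT peaks retained in KO (y axis, percent) in 5 classes of rank in the WT list, for peaks of the 40 genes (red, with numbers) and for all WT peaks (grey). Bars carry Wilson 95% intervals. In the strongest class 6 of 45 peaks of the 40 genes were retained, 13.3% against 31.0%, and between 60% and 80% of the list 4 of 20, against 6.43%.

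The peaks of these genes also differed in form from the list at large. Only 17 of 137 lay on several exonic blocks (12.4%, interval 7.89 to 19.0), against 23.5% of all WT peaks, and 25 of the 40 genes had single-block WT peaks alone. Among single-block peaks 11 of 120 were retained (9.17%), against 7.97% over all. Among peaks on several blocks it was 4 of 17 (23.5%), against 28.9%. In the strongest class, single-block peaks were retained in 5 of 39 (12.8%), against 18.8%. Retained WT peaks of the 40 genes had a median width of 511 bases and the others of 240 bases, and over all WT peaks these medians were 359 and 181 bases. KO peaks covered a median of 29.0% of a retained WT peak's exonic bases in these genes (quartiles 18.6 and 53.5). Over all retained WT peaks it was 50.2% (30.2 and 74.8). Of the 15 retained peaks, 4 were covered by at least 50%, against 1025 of the 1933 over all.

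**Figure D3:**
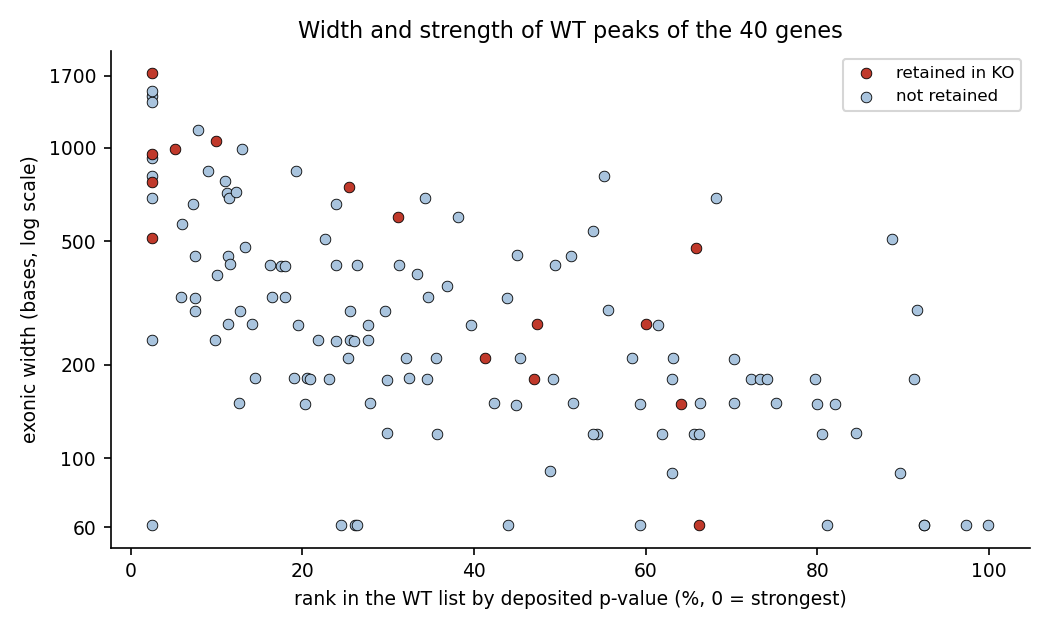
Exonic width in bases (y axis, log scale) against rank in the WT list in percent (x axis, 0 is strongest) for the 137 WT peaks of the 40 genes. Retained peaks (red, 15) run from 61 to 1733 bases and lie at ranks up to 66.2%. Points at 2.55% are the 12 peaks listed at 0.

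Of the neurexins, the presynaptic receptors, Nrxn2 retained 1 WT peak, near the 3′ end, and Nrxn3 none. In Nrxn2 (chromosome 19, 6418756 to 6533217) the KO list had 5 peaks over 811 exonic bases and the WT list 3 peaks over 1705. KO peaks of 329 and 121 bases lay inside a WT peak of 957 bases, from 6531425 to 6532381, listed at 0; the first of them began at the same base, and together they covered 47.0% of it. The other KO peaks had no WT counterpart. A KO peak of 210 bases on 2 blocks, from 6490088 to 6490644, had a score of 1e-124 and a rank of 6.22% in the KO list, 8727 bases from the nearest WT peak of the gene. Further KO peaks had 90 bases on 2 blocks (6450544 to 6455012) and 61 bases (6517036 to 6517096). The WT peak of 568 bases that joined blocks between 6473440 and 6481360 (score 1e-287) had no KO peak over it, nor had that of 180 bases next to the gene end. Nrxn2 and Lrrtm4 were the only members with more KO than WT peaks.

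Nrxn3 (chromosome 12) had no KO peak and 1 WT peak of 780 bases (score 1e-194), 2.76 kb from the gene end. Distances in kb from a gene's start or end run to the middle exonic base of a peak.

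Among neuroligins, postsynaptic ligands of neurexins, peaks of the KO list lay mostly away from those of the WT list. Nlgn1 (chromosome 3, minus strand), which encodes the neuroligin of excitatory synapses, had 3 KO peaks over 722 bases and 9 WT peaks over 1628, the most WT peaks of the 40 genes. The KO peaks lay 1.75 to 4.46 kb from the gene end. One of 151 bases, 25423485 to 25423635, covered 33.6% of the WT peak of 271 bases from 25423545 to 25423815. KO peaks of 390 bases (25425672 to 25426061, score 1e-34, rank 20.8%) and 181 bases (25426181 to 25426361) lay 1856 and 2365 bases from that WT peak. The strong WT peaks of Nlgn1 were elsewhere: 5 peaks of 151 to 271 bases with ranks from 9.79% to 20.5%, of which 4 lay 11.4 to 14.5 kb from the gene end and 1 lay 712 kb from it. None of these 5 was retained, and neither were 3 weak WT peaks of 61, 150 and 121 bases between 1.05 and 1.44 kb after the gene start.

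Nlgn2 (chromosome 11, minus strand) encodes the neuroligin of inhibitory synapses. It had 2 KO peaks, of 90 and 180 bases, neither over a WT peak, and 5 WT peaks over 2336 bases. The KO peak of 90 bases (69824767 to 69824856) ended 59 bases from the WT peak of 928 bases that is listed at 0 (69824916 to 69825843). The KO peak of 180 bases lay 3.09 kb after the gene start, 2496 bases from the nearest WT peak. Nlgn3 (X chromosome) had no KO peak and 3 WT peaks of 240, 419 and 688 bases, the last listed at 0, between 3.0 and 0.552 kb from the gene end.

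LRRTM proteins are the LRR ligands of neurexins at excitatory synapses. Lrrtm4 (chromosome 6) had KO peaks of 538 and 61 bases and a WT peak of 210 bases, and was the only gene of the 40 with a longer summed peak length in KO than in WT. The KO peak of 538 bases (80023271 to 80023808, score 1e-36, rank 19.8%) began 59 bases after the end of the WT peak (80023002 to 80023211, score 3.2e-67), so the WT peak counts as not retained although the peaks are neighbours. Lrrtm1 had 1 KO peak of 211 bases (77257666 to 77257876) around a WT peak of 61 bases (77257696 to 77257756), a weak one with a rank of 66.2%. The other 4 WT peaks of Lrrtm1 lay 15.0 to 17.2 kb from the gene end, among them one of 811 bases listed at 0, and none of these was covered. Lrrtm3 had no KO peak and 4 WT peaks over 630 bases, including the peak at its transcript start shown above, of 120 bases (score 7.9e-28, rank 61.9%). The others had 269 bases 1.63 kb from the gene end (rank 27.7%), and 61 and 180 bases 2.33 and 2.06 kb after the gene start (ranks 92.5% and 63.1%).

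**Figure D4:**
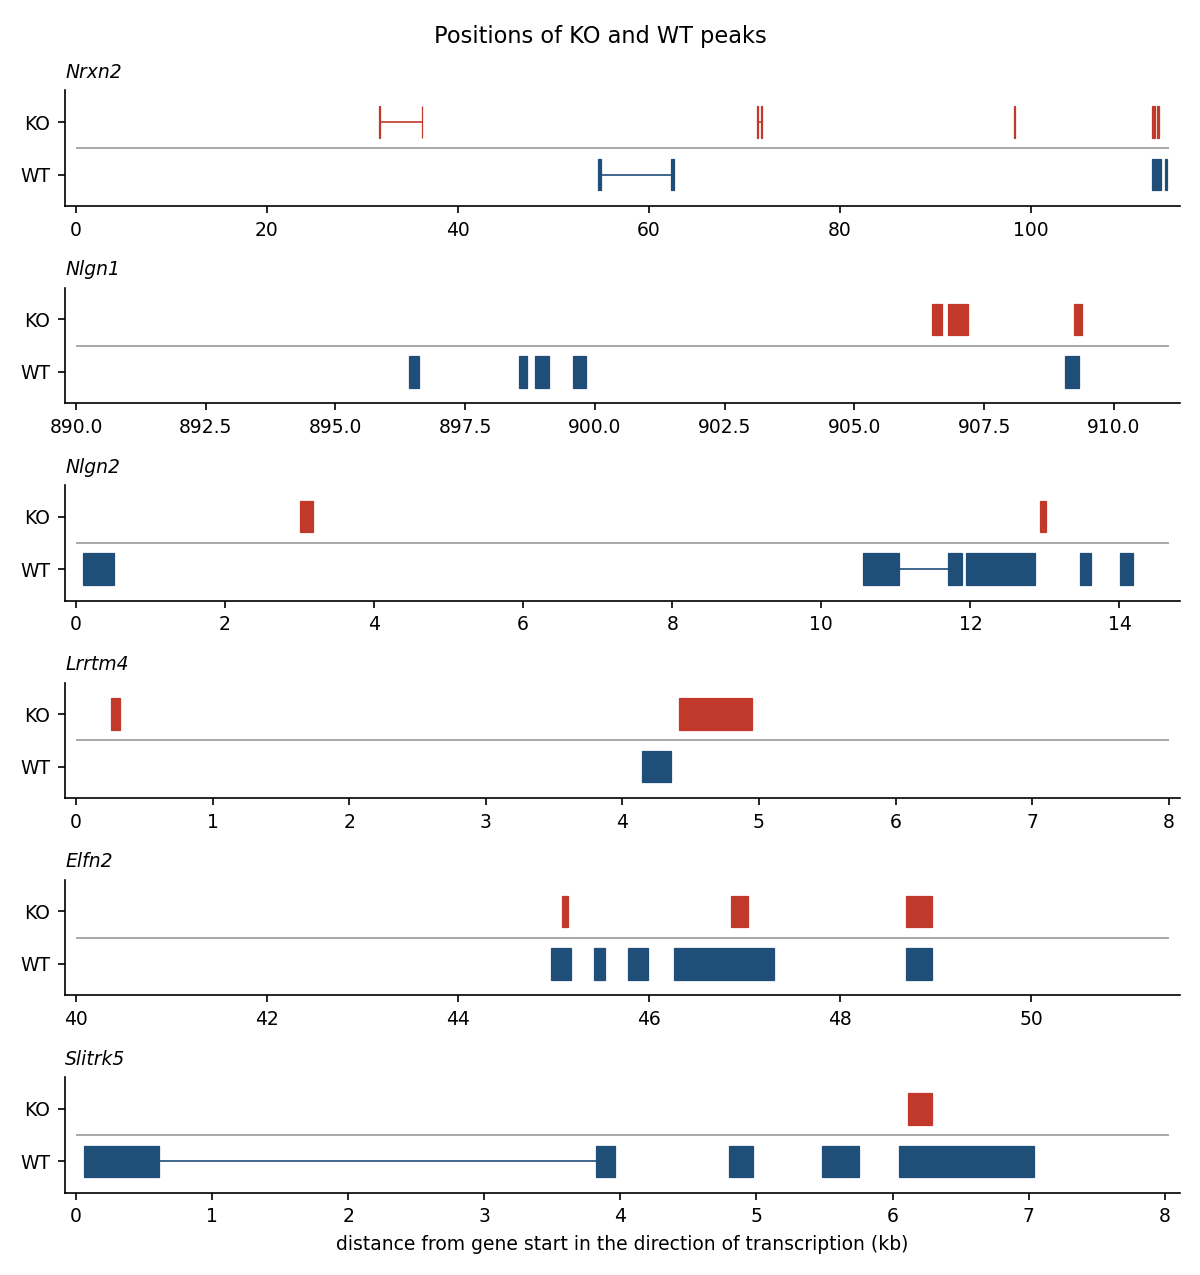
Positions of KO (red, upper row) and WT (blue, lower row) peaks in 6 genes, in kb from the gene start in the direction of transcription. Boxes are exonic blocks and thin lines join blocks of a peak; Of Nlgn1, Elfn2 and Lrrtm4 only the part with KO peaks is drawn. In Nlgn1 the KO peaks sit in the last 5 kb, with 1 of 3 touching a WT peak, while in Elfn2 each of 3 KO peaks lies over a WT peak.

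The Lrrc4 genes, which encode the NGL proteins, had 2 KO peaks over 301 bases and 9 WT peaks over 4972 bases. Lrrc4b had 1 KO peak of 150 bases (44462717 to 44462866, rank 92.3%) inside a WT peak of 1733 bases (44461313 to 44463045), which is listed at 0, is the widest WT peak of the 40 genes and was covered over 8.66% of its length. Its other WT peak, at the transcript start shown above, had 120 bases. Lrrc4 had a KO peak of 151 bases 0.703 kb from the gene end, 807 bases from the nearest of its 3 WT peaks (270, 839 and 150 bases). Lrrc4c had no KO peak and 4 WT peaks over 1860 bases, among them one of 1139 bases (score 1e-244) and one of 240 bases listed at 0 near the gene end. The remaining peaks of Lrrc4c, of 330 and 151 bases (ranks 18% and 51.5%), lay 164 and 163 kb before the gene end.

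The LRFN genes, which encode postsynaptic SALM proteins, had the longest summed WT peaks of the families. In 3 of 5 there was no KO peak, while 27.0% of all genes with a WT peak had one. The family had 2 KO peaks over 211 bases and 20 WT peaks over 9027 bases, a ratio of 2.34%. Lrfn1 had a KO peak of 121 bases that covered the last 16.2% of a WT peak of 749 bases and ended at the same base (28467548). Its strongest WT peak, of 987 bases (score 1e-174), was not covered. Lrfn3 had a KO peak of 90 bases that shared a border (30360671) with a WT peak of 150 bases and covered 90 of these. That WT peak was the weakest of the 5 in Lrfn3 (rank 64.1%). Lrfn2, Lrfn4 and Lrfn5 had 4, 3 and 5 WT peaks over 1757, 2087 and 1772 bases and none in KO, among them a Lrfn4 peak of 1460 bases on 3 blocks that is listed at 0 and a Lrfn5 peak of 330 bases with a score of 1e-291. The peaks of Lrfn5 formed a group of 420, 181 and 421 bases between 0.616 and 1.6 kb after the gene start (ranks 23.9%, 19.0% and 11.6%) and another of 420 and 330 bases 18.1 and 14.1 kb from the gene end (ranks 16.2% and 5.90%). Lrfn2 likewise had peaks of 417 bases each 27.4 and 26.6 kb from the gene end (ranks 17.5% and 18%), and peaks of 714 and 209 bases 0.684 and 0.135 kb from it (ranks 11.2% and 70.3%). The other peaks of Lrfn4 had 447 bases near the gene end (rank 11.3%) and 180 bases at the start shown above (rank 91.3%). Of Lrfn3, the WT peaks without a KO peak had 269, 597, 299 and 299 bases, at ranks of 39.7%, 38.1%, 25.6% and 29.7%.

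Slitrk genes, whose products induce presynaptic differentiation through LAR-type phosphatases, had 1 KO peak and 18 WT peaks. The KO peak, of 180 bases in Slitrk5 (111681225 to 111681404, rank 65.1%), covered 18.3% of a WT peak of 986 bases with a score of 1e-320. Slitrk1 had no KO peak and 6 WT peaks of 61 to 689 bases spread over 3592 of the 4252 bases of the gene, at ranks from 11.5% (the peak of 689 bases, 0.914 kb from the gene end) to 65.7%. The WT peaks of Slitrk5 without a KO peak had 687, 180 and 269 bases, at ranks of 34.3%, 23.1% and 19.5%. Slitrk2 had WT peaks of 61, 151 and 241 bases (ranks 44.0%, 42.3% and 27.7%) 7.04 to 5.09 kb from the gene end and none in KO. Slitrk4 had WT peaks of 510, 61 and 121 bases (ranks 22.6%, 26.1% and 29.9%) 5.92 to 7.43 kb from the gene end and none in KO. Slitrk3 had 2 WT peaks and none in KO. All 3 Flrt genes, ligands of latrophilins and UNC5 receptors, lacked a KO peak, as did most genes with a WT peak (27.0% of all had one). Flrt1 had 6 WT peaks over 2306 bases, of 120 to 808 bases and ranks from 45.4% to 79.8%, between 5.92 and 17.8 kb from the gene end. Flrt3 had 2 and Flrt2 had 1 of 390 bases with a score of 1e-206.

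ELFN proteins bind group III metabotropic glutamate receptors across the synapse, and the 2 Elfn genes differed. Elfn2 (chromosome 15, minus strand) had 3 KO peaks, all over WT peaks, and 5 WT peaks, of which 3 were retained. No other gene of the 40 had more than 1 retained peak. The KO and the WT peak from 78669817 to 78670087 had the same borders, 271 bases, the only such pair among the 40 genes, with a score of 4e-31 in the KO list and a score of 2.5e-45 in the WT list. A KO peak of 181 bases covered 17.3% of the WT peak of 1048 bases (score 1e-207), and one of 61 bases, with a rank of 99.9% in the KO list, covered 29.0% of a WT peak of 210 bases. Elfn1 (chromosome 5) had no KO peak and 4 WT peaks over 1830 bases, 2 of them, of 480 and 720 bases, with scores of 1e-170 and 1e-181. Its other peaks had 450 bases on 2 blocks (rank 45.0%) and 180 bases at the gene end (rank 73.3%). The Elfn2 peaks without a KO peak had 210 and 120 bases (ranks 63.2% and 54.3%).

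Among the remaining LRR receptors, each family held at most 1 KO peak. Lrrn2 had a KO peak of 120 bases on 2 blocks, inside a WT peak of 598 bases that joins the same exons and of which it covered 20.1%. Its WT peak of 1405 bases, listed at 0, was not covered, and neither were those of 449 and 150 bases. Lrrn1 had no KO peak and WT peaks of 61, 210, 299 and 299 bases 2.98 to 0.805 kb from the gene end, the last of them with a score of 1e-253. Lrrn3 had no KO peak and WT peaks of 329, 239 and 61 bases 0.283 to 2.03 kb from the gene end, the first with a score of 1e-250. Lingo1, which encodes a co-receptor of the Nogo receptor that restrains axon growth and myelination, had a KO peak of 180 bases on 2 blocks inside a WT peak of 776 bases listed at 0, of which it covered 23.2%. The Lingo1 peak of 1522 bases, also listed at 0, was not covered. Lingo3 had no KO peak and 5 WT peaks of 151, 330, 688, 509 and 300 bases 0.643 to 2.96 kb from the gene end, at ranks from 34.7% to 91.6%. Lingo2 had no KO peak and WT peaks of 360, 181 and 151 bases 11.3 to 12.1 kb from the gene end, at ranks of 36.9%, 32.4% and 75.2%. Of the Lrig genes, Lrig2 had a KO peak of 150 bases 2958 bases from its WT peak of 180 bases. Lrig1, a negative regulator of receptor tyrosine kinases, had no KO peak and WT peaks of 180 and 300 bases.

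The 5 Lrrc genes outside the adhesion families had 2 KO peaks over 210 bases and 11 WT peaks over 2239 bases. None of these WT peaks was in the strongest 20% of the list. Lrrc47 had a KO peak of 120 bases that began at the first base of a WT peak of 180 bases and covered 66.7% of it. Lrrc45 had a KO peak of 90 bases on 3 blocks inside a WT peak of 475 bases on 7 blocks. Its other WT peaks had 268 and 120 bases (ranks 61.5% and 35.7%), and those of Lrrc47 had 90, 329 and 90 bases (ranks 89.6%, 43.9% and 63.1%). Without these 5 genes, 13 of 126 WT peaks (10.3%) and 11 of 35 genes (31.4%) were retained.

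**Figure D5:**
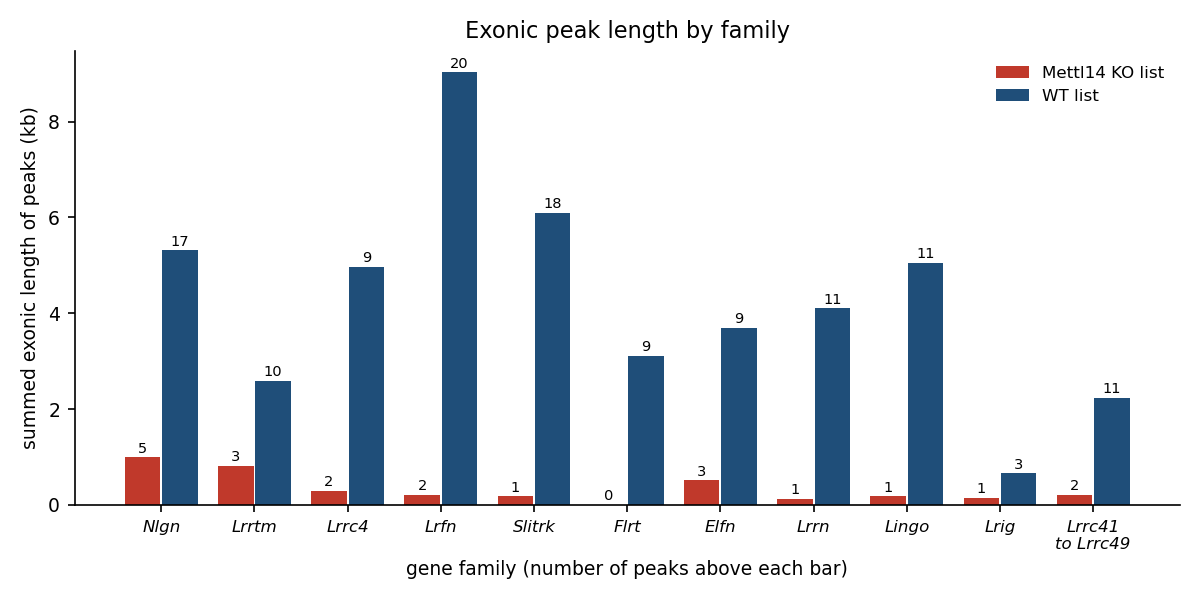
Summed exonic length of peaks in kb (y axis) by gene family, neurexins not drawn, in the KO list (red, left bar) and the WT list (blue, right bar), with the number of peaks above each bar. The Lrfn genes reach 9027 bases in WT and 211 in KO. The Flrt genes have no KO peak, and 27.0% of all genes with a WT peak have one.

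By family, the KO length was 18.7% of the WT length in Nlgn and 31.3% in Lrrtm. It was 22.7% in Lrig, 13.9% in Elfn, 6.05% in Lrrc4, 3.56% in Lingo, 2.96% in Slitrk, 2.93% in Lrrn and 2.34% in Lrfn, beside the 16.6% over all peaks. That last ratio includes KO peaks in genes without a WT peak. Of the 11 KO peaks outside WT peaks, 3 lay in Nrxn2, 4 in neuroligins and 2 in LRRTM genes. Nrxn2 has 5 KO peaks, the neuroligins have 5 and the LRRTM genes 3. The other two lay in Lrrc4 and Lrig2. Each family rests on 2 to 5 genes, and the ratios were not tested against each other.

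Along the gene, peaks of both lists lay near the end about as often as all peaks did. Within 1000 bases of the annotated gene end, measured from the middle exonic base, lay 4 of 27 KO peaks (14.8%), against 16.7% of all KO peaks. In the WT list it was 21 of 137 (15.3%), against 16.4%. None of these 21 WT peaks was retained (upper Wilson limit 15.5%), and over all WT peaks near the gene end 6.97% were. This absence depends on the window. The retained WT peaks of Lrfn1 and Lrrc4b lay just outside it, 1.07 and 1.17 kb from the gene end. The KO peaks over them lay inside it, at 0.754 and 0.559 kb. Within 200 bases of the gene start lay 3 of 137 WT peaks (2.19%), against 4.44% of all. The 11 KO peaks outside WT peaks lay a median of 2500 bases, introns included, from the nearest WT peak of their gene (range 59 to 18427), against 2190 bases over all such KO peaks, and 2 of the 11 lay within 100 bases of it.

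Genes that work with these families showed retained peaks in varied shares. Of 39 extracellular partners, 32 carried WT peaks. A retained one was present in 12 genes (37.5%), and in 7 of the 14 with 3 or more WT peaks. Over all genes these shares were 20.6% of those with a WT peak and 39.7% of those with 3 or more. Ntrk2, the BDNF receptor gene that also binds SLITRK5, had 4 KO and 6 WT peaks, 3 retained. Tenm4 had 3 and 3, with 1 retained, and the latrophilin gene Adgrl1 and the calsyntenin gene Clstn1 had 2 retained of 5 and 3 WT peaks. Mdga2, which encodes a blocker of neuroligins, retained none of 7 WT peaks and had 1 KO peak elsewhere. Its paralogue Mdga1, the latrophilin gene Adgrl3 and the LAR gene Ptprf retained none of 4 each. Mdga1 and Adgrl3 had 1 KO peak each, and Ptprf had none. Of 31 intracellular scaffolds, 25 carried WT peaks. A retained one was present in 15 genes, and in 10 of the 15 with 3 or more WT peaks. Shank1 had 5 KO and 4 WT peaks with 3 retained. Shank2 (4 KO, 3 WT) and Dlgap3 (3 KO, 2 WT) kept 1 each, while Dlgap4, Homer1, Dlgap2 and Dlg3 had no KO peak and 4, 4, 3 and 3 WT peaks.

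Of 37 other synaptic adhesion genes, 32 carried WT peaks. A retained one was present in 13 genes (40.6%, against 20.6% over all), and in 8 of the 15 with 3 or more WT peaks (39.7% over all). Ncam1 had 4 KO and 4 WT peaks, with 2 retained, over 873 KO and 933 WT bases. Adgrb2 had 3 KO and 4 WT peaks and Nptxr 2 and 3, with 1 retained each, and Cadm3 retained 2 of 3. Ephb2 retained none of 6 WT peaks and had 1 KO peak elsewhere. Kirrel3, Efnb1 and Efnb2 had 4, 4 and 3 WT peaks and none in KO. By peak, 19.5% of the WT peaks of extracellular partners, 28.2% of those of scaffolds and 19.0% of those of other adhesion genes were retained, beside the 10.9% of the 40 LRR, neurexin and neuroligin genes and 12.9% over all. These lists were not tested against each other.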

How the data were processed

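STAR and the build GRCm38 are named in, and credited to, the submitters' processing notes. Not given in the sources used here are the peak caller, its thresholds and how libraries were combined. The authors deposited, per genotype, a consensus peak list with exonic blocks, strand, gene symbol and a score, read as a p-value or q-value since no score exceeds 0.00015. Depth is unknown. Entries of a list that overlap by exonic blocks on a strand were merged (3733 KO entries to 3673 peaks, 15091 WT entries to 15009), which changed no peak of the 40 genes. None of their peaks carries another gene's name. Coordinates count from 1. Gene ends and starts come from RefSeq GRCm38.p6. Overlap code was tested on simulated peaks. Shares carry Wilson 95% intervals (scipy 1.17.1, Python 3.11.15). Peak values were given for genes with a KO peak, genes with 3 or more WT peaks, neurexins and neuroligins, and for 8 genes at most per partner list: 4 without a retained peak, taken by number of WT peaks, and 4 with one, taken by number of KO peaks. The values of 2 genes taken by these rules are not reported here. Members and lists were chosen with earlier results of these data known. The alternatives tried are described in the closing section.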

Additional observations from a re-analysis of the deposited data

How the results depend on the processing

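No paired analysis was possible because each genotype has a single pooled list, so that no replicate could be left out either. The DRACH motif was not searched in peaks, since the sequences used here cover only the surroundings of transcript starts. Ignoring strand, whole spans, unmerged entries and leaving out the Lrrc genes outside the adhesion families kept the shares of WT peaks, genes and KO peaks within their intervals, as did a gap of 100 bases (12.4%, 37.5% and 66.7%), chosen after seeing the data. When 50% of a peak had to be covered, 2.92% of WT peaks (6.83% over all) and 10% of genes were retained. With 50% of both peaks shared it was 2.19% of WT peaks (6.26% over all), 7.50% of genes (10.9% over all) and 11.1% of KO peaks (25.6% over all), 20.2% of partner genes in place of 44.9%, and 0 of the 45 strongest WT peaks (13.6% over all; chosen after seeing the data). With as many WT peaks kept, by strength, as the KO list has, 25.9% of KO peaks lay over a WT peak (32.5% over all), while the retained share of WT peaks was 10.9% (28.6% over all). With the stronger 50% of each list, 17.9% of genes had a retained peak (19.3% over all), and 47.9% of the WT peaks left were in the strongest 20% of the whole list, since fewer peaks enter. Windows of 500 and 5000 bases at the gene end gave 0% and 63.0% of KO peaks and 6.57% and 58.4% of WT peaks, by construction. The median width (268 to 330 bases) and the ratio of KO to WT length (7.51% to 9.21%) kept within the quartiles and within 1.5 times. Unknown depth, unequal numbers of libraries and 27 KO peaks limit each share.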

Other observations

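Where a gene of the 40 with several WT peaks retained any, its strongest WT peak was among them in 6 of 13 genes (46.2%), against 66.1% of 1180 such genes overall. The weakest was among them in 3 of 13 (23.1%), against 25.6%. The 2 sets differ in peak number: 12 of the 13 genes had 3 or more WT peaks, against 725 of the 1180. These shares are therefore not strictly alike. Several of the genes lie inside the span of another gene: Lrrtm1 in Ctnna2 and Lrrtm3 in Ctnna3, which encode alpha-catenins, Lrrc4 in Snd1, Lrfn4 in Pcx, Flrt1 in Macrod1, Flrt3 in Macrod2 and Lrrn3 in Immp2l. Ctnna2, Pcx and Macrod2 had no KO peak and 2 WT peaks each, Snd1 had no KO peak and 1 WT peak, and the other three had no peak in either list. Over all genes with a WT peak 27.0% had a KO peak. No peak of the 40 genes was overlapped by a peak on the other strand in either list.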
